A study of Mus musculus with 2 samples.

Results

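The genes described here are the nuclear-encoded genes of oxidative phosphorylation, read from single-cell RNA counts of mouse thymus. Members were chosen by name: symbols that begin with Ndufa, Ndufb, Ndufc, Ndufs, Ndufv, Uqcr, Atp5 or Cox4 to Cox8, leaving out symbols with -ps. The rule found 89 of the 32285 features by name alone, though it was set with earlier results of these data known. They are 36 genes of complex I, 8 of complex III, 18 of complex IV, 17 of complex V, and 10 assembly factors and other genes that share the prefixes (Ndufaf1 to Ndufaf8, Cox7a2l and Ndufa4l2). The 13 protein-coding genes of the mitochondrial genome, whose symbols begin with mt-, are set beside them.

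The cKO library came from Tbx21Cre Ets1F/F Rosa26-YFP+ mice and the control library from Tbx21Cre Rosa26-YFP+ mice, 1 library per genotype, each pooled from 2 mice per the labels. In both, Cre runs from the gene that encodes T-bet (Tbx21), a transcription factor of effector lymphocytes, and turns on a YFP reporter. The YFP+ thymus cells that were sorted are therefore cells with a history of T-bet expression, among them the T-bet+ invariant natural killer T cells (iNKT1 cells) that the study is about. In the cKO mice the same Cre also deletes the floxed gene of the transcription factor Ets1. The sources used here do not give the mice's age or sex. The mice of a pool cannot be told apart, nor can genotype and library, so the differences have no replicate check and were not tested.

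Oxidative phosphorylation passes electrons from NADH through complex I, and from succinate through complex II, to complex III and then, by cytochrome c, to complex IV, which hands them to oxygen. Complexes I, III and IV pump protons out of the mitochondrial matrix, and complex V, the ATP synthase, lets them back in and makes ATP. Complexes I, III, IV and V each combine subunits encoded in the nucleus with subunits encoded in the mitochondrial genome, so that 2 genomes supply 1 machine. In T cells, respiration is known to support long-lived and resting states, while activated effector cells also rely on glycolysis.

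UMIs (unique molecular identifiers) were the unit counted. Of the cells with 500 genes or more, 5903 of 7376 in cKO and 7395 of 7815 in control had no more than 10% of their UMIs on mt- genes and were kept. Their median depth was 5533 UMIs in cKO and 2666 in control. The libraries share 29 barcodes, of which 14 were kept in both. Cells were placed in classes by UMIs of defining genes: 2797 cKO and 6098 control cells with CD3 but no Cd8b1 UMI (called T cells below), 513 cKO and 826 control CD8 T cells, 44 cKO and 100 control NK cells, and 183 cKO and 48 control B cells. Epcam, an epithelial surface gene, picked out 1915 cKO cells led by gut epithelium genes, whose 10 markers summed to 26900 CPM (a gene's UMIs per 1000000 UMIs of all genes). Such cells are not among those a sort of YFP+ thymus cells is meant to yield, and the labels do not say where they come from. The 169 control cells with an Epcam UMI do not bear that label: 163 of them held a CD3 UMI and the same markers summed to 225 CPM, so gut-led cells are described in cKO only. Trav11, the receptor segment that marks iNKT cells, was seen in 136 cKO and 157 control T cells, so most cells of the T class carry no direct sign of being iNKT cells.

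Ets1 was lower in cKO cells of every class compared. It stood at 169 CPM in cKO and 528 CPM in control T cells, 3.12-fold lower (interval 3.01 to 3.24). The drop was 2.46-fold in CD8 T cells and 3.95-fold in NK cells, and 1.44-fold (1.07 to 1.89) in B cells, at 141 CPM in cKO and 201 CPM in control. Intervals here and below are exact at the 95% level and take in counting error alone, not differences between mice or libraries.

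Start regions of 4 members are shown because they stand at the ends of the range described below: Ndufa1 and Atp5k had the highest ratios of complexes I and V, Uqcr11 that of complex III, and Ndufa10 the lowest of all tested members. The windows run from 250 bases before to 50 bases after the annotated start (RefSeq, GRCm38.p6), all on the minus strand: Ndufa1 at chrX:37191189-37191488, Atp5k at chr5:108434350-108434649, Uqcr11 at chr10:80406772-80407071 and Ndufa10 at chr1:92473709-92474008. Capitals mark the ETS family motif CCGGAAG, on either strand, and the NRF1 motif, GCGCA followed by its reverse complement TGCGC. NRF1 and the ETS factor GABP are known regulators of respiratory chain genes. The windows of Ndufa1 and Ndufa10 hold neither motif, nor does that of Cox7c, the highest of complex IV, which is not printed. The Ndufa1 window lies wholly upstream of the gene in GENCODE vM21, which starts at 37191163 on the minus strand. The annotations therefore differ on where Ndufa1 starts.
Ndufa1: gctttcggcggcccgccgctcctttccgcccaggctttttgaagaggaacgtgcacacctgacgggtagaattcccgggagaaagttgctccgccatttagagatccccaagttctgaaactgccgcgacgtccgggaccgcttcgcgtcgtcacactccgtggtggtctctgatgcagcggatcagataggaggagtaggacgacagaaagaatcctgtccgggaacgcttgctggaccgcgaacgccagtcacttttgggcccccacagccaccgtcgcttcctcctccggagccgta
Atp5k: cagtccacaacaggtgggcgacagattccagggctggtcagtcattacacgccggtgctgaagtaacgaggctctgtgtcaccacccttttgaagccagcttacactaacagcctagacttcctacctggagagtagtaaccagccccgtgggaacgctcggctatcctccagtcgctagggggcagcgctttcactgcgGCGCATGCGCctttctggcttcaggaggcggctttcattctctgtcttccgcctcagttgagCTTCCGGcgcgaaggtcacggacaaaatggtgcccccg
Uqcr11: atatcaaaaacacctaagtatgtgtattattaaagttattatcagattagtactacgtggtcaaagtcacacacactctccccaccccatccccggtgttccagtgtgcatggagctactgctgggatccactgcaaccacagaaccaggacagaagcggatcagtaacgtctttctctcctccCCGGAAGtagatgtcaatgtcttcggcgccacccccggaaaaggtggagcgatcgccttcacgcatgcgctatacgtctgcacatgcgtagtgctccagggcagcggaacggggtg
Ndufa10: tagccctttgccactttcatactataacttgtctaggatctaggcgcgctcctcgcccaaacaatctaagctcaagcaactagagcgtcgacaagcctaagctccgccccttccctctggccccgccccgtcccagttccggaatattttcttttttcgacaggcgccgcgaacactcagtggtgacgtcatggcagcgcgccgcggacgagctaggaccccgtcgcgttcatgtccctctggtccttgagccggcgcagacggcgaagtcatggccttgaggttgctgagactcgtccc

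In T cells, the nuclear members together took a larger share of RNA in cKO than in control, while the mitochondrially encoded genes took a smaller one. The members summed to 22764 CPM in cKO and 18751 CPM in control, a ratio of 1.21 (1.21 to 1.22). The mt- genes summed to 27093 CPM in cKO and 42710 CPM in control, 1.58-fold lower (1.57 to 1.58). There were thus 0.840 nuclear UMIs for each mt- UMI in cKO T cells and 0.439 in control T cells. With no filter on mt- UMIs, mt- genes made 2.88% of UMIs in cKO and 4.54% in control T cells.

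A single gene was called higher or lower by a rule of size: a ratio of at least 1.5, at least 20 CPM in the higher library, and an interval that excludes 1. Of the 79 members that reached 20 CPM in T cells, 8 were called higher in cKO and 0 lower, against 12.6% of all 5952 such genes called higher and 5.14% lower. The share of members called higher, 10.1%, lies near that background, so the calls themselves are no result about the members. The members' median log2 ratio was 0.28, against 0.16 for all genes, and 68 of the 79 lay above 0 and 49 above the median of all genes. When cells were thinned to 1500 UMIs, which leaves out 75 cKO and 1891 control cells below that depth, the members' median was 0.23 and that of all genes 0.21. With a total that left out mt- and ribosomal protein genes, 2 members were called higher, beside 7.95% of all genes. The median of all genes then moved to -0.01 and the members' median to 0.11.

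**Figure D1:**
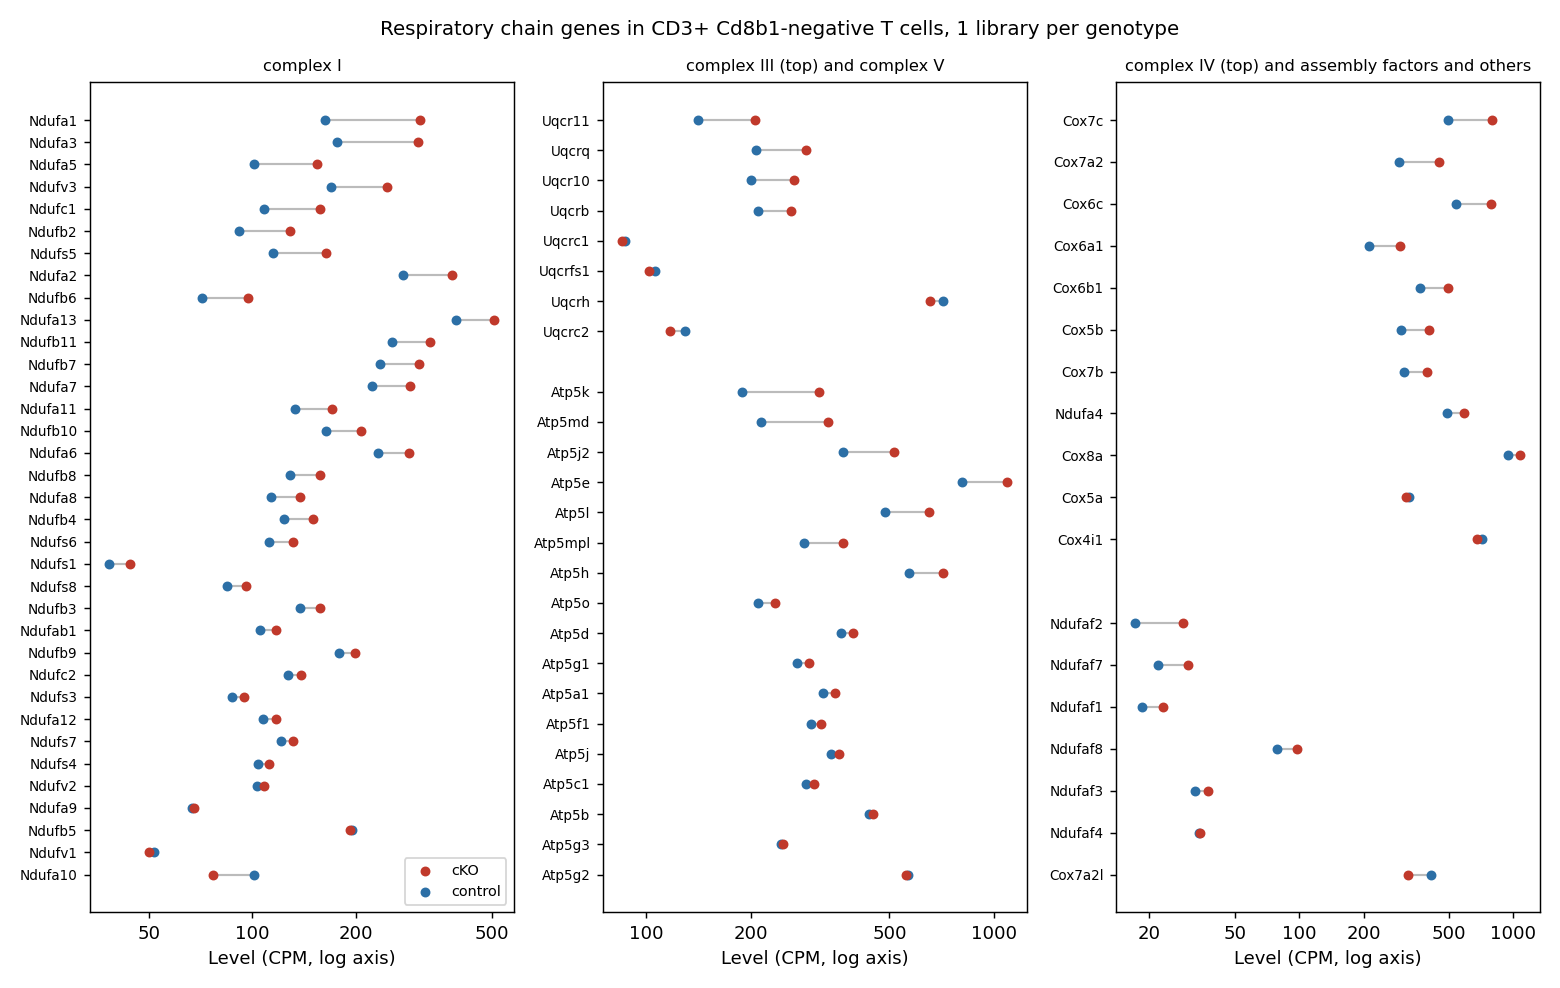
Levels of members reaching 20 CPM in T cells, in CPM on a log axis, with cKO in red and control in blue (1 library each), sorted within each complex by the ratio of cKO over control. Complex I runs from Ndufa1, at 309 CPM in cKO and 163 in control, to Ndufa10, at 76.5 in cKO and 101 in control.

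All 36 complex I genes reached 20 CPM in T cells, and 3 of them were called higher in cKO. Ndufa1, an accessory subunit encoded on the X chromosome (GRCm38, 37187588 to 37191163, minus strand), had 309 CPM (301 to 316) in cKO and 163 CPM (158 to 168) in control, a ratio of 1.89 (1.82 to 1.97). Ndufa3, another small accessory subunit, had 304 CPM in cKO and 177 CPM in control, a ratio of 1.72 (1.66 to 1.79). Ndufa5, an accessory subunit of the peripheral arm, had 154 CPM in cKO and 101 CPM in control, a ratio of 1.53. At the other end, Ndufa10 was 0.754 of its control level (0.708 to 0.803), which misses the size rule, and Ndufv1 and Ndufb5 stood at ratios of 0.970 and 0.987.

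Complex I has a core of conserved subunits that carry the electron path, and many accessory subunits around it. The split into core and accessory genes was made after the values were seen and is given as a description. The 6 nuclear core genes set apart here (Ndufv1, which binds the NADH side flavin, Ndufv2, Ndufs1, Ndufs3, Ndufs7 and Ndufs8) had a median log2 ratio of 0.12, from -0.04 to 0.20, with 0 called in either direction. The 29 accessory genes had a median of 0.34, from -0.41 to 0.92. In T cells these core genes therefore lay within a narrow band below the median of the accessory genes, and near the median of all genes.

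Complex III showed a similar division among its 8 genes, of which 0 were called. Its core proteins Uqcrc1 and Uqcrc2 and the iron-sulphur protein Uqcrfs1 had log2 ratios from -0.15 to -0.02. Uqcrc2 had 117 CPM in cKO and 129.7 CPM in control, and Uqcrfs1 had 102 CPM in cKO and 106 CPM in control. The 5 small subunits had a median of 0.41: Uqcr11 reached 206 CPM in cKO and 141 CPM in control, a ratio of 1.45 (1.39 to 1.52), and Uqcrq and Uqcr10 had ratios of 1.39 and 1.33. The exception was Uqcrh, the hinge protein, with 652 CPM in cKO and 712 CPM in control, a ratio of 0.916.

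Complex IV had the highest median log2 ratio of the complexes in T cells, 0.43 over the 11 of its 18 genes that reached 20 CPM. Cox7c, a small subunit, had 796 CPM (784 to 808) in cKO and 497 CPM (488 to 506) in control, a ratio of 1.60 (1.56 to 1.64). Cox7a2, a small subunit with tissue-specific forms, had 448 CPM in cKO and 294 CPM in control, a ratio of 1.52, and these were the 2 complex IV genes called higher. Cox6c missed the threshold narrowly at 1.46, with 789 CPM in cKO and 540.4 CPM in control. The 2 lowest ratios of the complex, those of Cox4i1 and Cox5a, stood apart from these. Cox4i1 had 678 CPM in cKO and 713 CPM in control, a ratio of 0.952 (0.931 to 0.973), and Cox5a had 316 CPM in cKO and 326 CPM in control.

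Of the 17 complex V genes, all reached 20 CPM and 2 were called higher, and the median log2 ratio was 0.12. Atp5k, a small membrane subunit linked to dimers of the synthase, had 314 CPM (306 to 322) in cKO and 189 CPM (184 to 194) in control, a ratio of 1.66 (1.60 to 1.72). Atp5md, another small membrane subunit, had 332 CPM in cKO and 214 CPM in control, a ratio of 1.55. The catalytic F1 subunits were close between the libraries: Atp5b had 447 CPM in cKO and 436 CPM in control, and Atp5a1 348 CPM in cKO and 323 CPM in control. The c-ring genes Atp5g1, Atp5g2 and Atp5g3, which encode the same mature protein, had ratios of 1.08, 0.988 and 1.02.

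Among the assembly factors and other genes, 7 of 10 reached 20 CPM. Ndufaf2, a complex I assembly factor, was called higher at 28.8 CPM in cKO and 17.2 CPM in control, a ratio of 1.67 (1.48 to 1.90). Ndufaf7 and Ndufaf1, also complex I assembly factors, had ratios of 1.38 and 1.26, and Ndufaf3 and Ndufaf4 had 1.15 and 1.02. Cox7a2l, a factor for supercomplexes of III and IV, had 321 CPM in cKO and 414 CPM in control, a ratio of 0.775 (0.751 to 0.799), which misses the size rule.

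The tissue-restricted forms of complex IV subunits were all but missing from T cells. Cox4i2, Cox8b and Ndufa4l2 each had 1 UMI in the cKO T cells and 0 in the control T cells, and Cox7b2 and Cox8c had 0 in both, where a count of 0 allows up to 0.144 CPM in cKO and 0.117 CPM in control. A trace of the muscle forms Cox6a2 and Cox7a1 and of the testis form Cox6b2 was seen, below the level of 20 CPM needed for a call. Cox6a2 had 64 UMIs in 26 cKO T cells, 33 of them in 3 cells, and 4 UMIs in control T cells. Cox7a1 had 40 UMIs in cKO and 2 in control, and Cox6b2 had 49 in cKO and 10 in control. In gut-led cells of the cKO library Cox7a1 reached 73.4 CPM, with 394 UMIs in 300 of 1915 cells, and the part of such RNA in the T cell counts was not tested.

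The mitochondrially encoded genes moved the other way from most nuclear members, but not as a block. In T cells 7 of the 13 were called lower in cKO and 1 higher. The steepest drop was in mt-Co3, a complex IV core subunit, at 4379.7 CPM in cKO and 8411 CPM in control, 1.92-fold lower. The complex III gene mt-Cytb was 1.73-fold lower, the complex V gene mt-Atp6 1.67-fold, mt-Co2 1.65-fold, mt-Nd1 1.64-fold, mt-Nd3 1.60-fold and mt-Nd2 1.55-fold. The complex I genes mt-Nd4 and the complex IV gene mt-Co1 had smaller drops of 1.32-fold and 1.31-fold, which miss the size rule.

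The complex I gene mt-Nd4l ran against these, with 339 CPM in cKO and 180.2 CPM in control, a ratio of 1.88 (1.81 to 1.95). The complex V gene mt-Atp8 had 98.6 CPM in cKO and 70.2 CPM in control, a log2 ratio of 0.49, and mt-Nd5 477 CPM in cKO and 417 CPM in control. mt-Nd6 was level, at 44.0 CPM in cKO and 44.5 CPM in control. The annotated coding regions of mt-Nd4l and mt-Nd4, and of mt-Atp8 and mt-Atp6, overlap and each pair is made as 1 transcript, so the counts of these pairs cannot be cleanly separated.

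**Figure D2:**
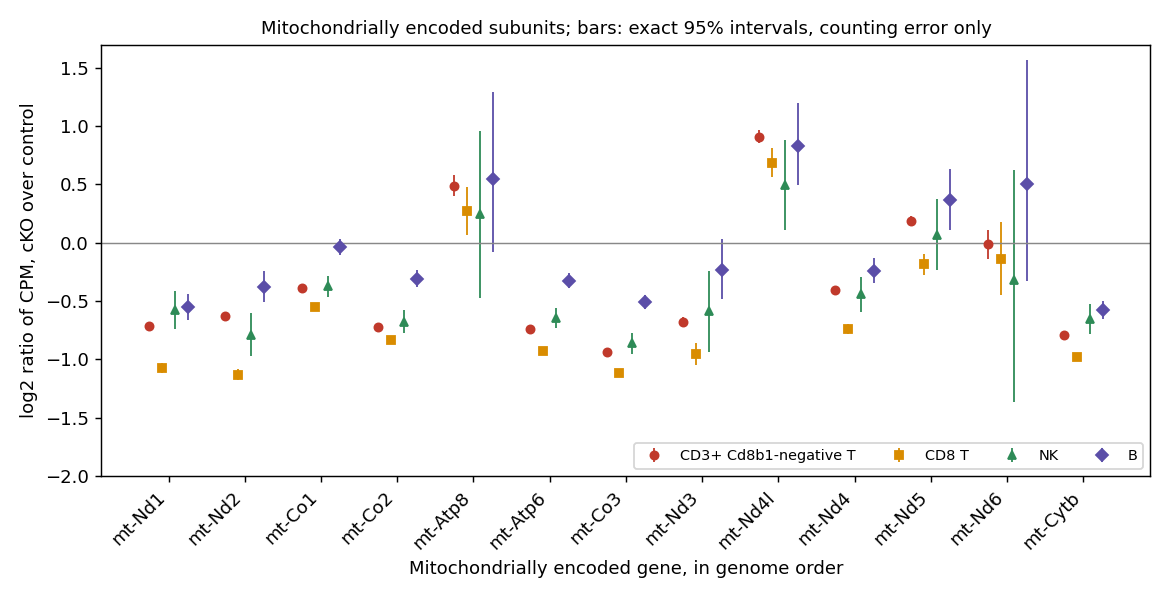
Log2 ratio of CPM, cKO over control, of the 13 mitochondrially encoded genes in T, CD8 T, NK and B cells, with exact 95% intervals for counting error. mt-Co3 and mt-Cytb lie below 0 in all 4 classes and mt-Nd4l above 0 in all 4.

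In CD8 T cells, 14 of 78 members were called higher in cKO and 0 lower, beside 22.6% of all genes called higher and 6.94% lower. The members' median log2 ratio was 0.32, against 0.27 for all genes, so the members as a set lay close to the rest. They summed to 24822 CPM in cKO and 19473 CPM in control, a ratio of 1.27, and complex IV had the highest summed ratio at 1.37. Ndufa1 had 326 CPM in cKO and 174 CPM in control CD8 T cells, a ratio of 1.87 (1.72 to 2.04), and Ndufa3 had a ratio of 1.82. The calls also took in Cox5b, the zinc-binding subunit of complex IV, at 568 CPM in cKO and 342 CPM in control, and the complex V membrane subunit Atp5j2, at 614 CPM in cKO and 368 CPM in control. Of the 8 genes called higher in T cells, 7 were also called in CD8 T cells, and Ndufa5, at a ratio of 1.26, was not. The same overlap over all genes was not counted. Both classes come from the same libraries, so this overlap is no result about the members. The mt- genes summed to 23700 CPM in cKO and 43175 CPM in control, 1.82-fold lower, with 8 called lower and mt-Nd4l called higher.

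In NK cells, 17 of 79 members were called higher in cKO and 1 lower, where 7.03% of all genes were called higher and 9.23% lower. The members' median log2 ratio was 0.30, against -0.01 for all genes. The background differed with transcript length. Under 600 bases, 9 of 27 members were called higher with a median of 0.42, and 25.3% of other genes with a median of 0.33. At 1200 to 2000 bases, 2 of 13 members were called higher with a median of 0.16, and 5.60% of other genes with a median of -0.04. These values rest on 44 cKO and 100 control cells, and intervals are wide. Atp5mpl, a small membrane subunit of complex V, had 516 CPM in cKO and 278 CPM in control NK cells, a ratio of 1.86 (1.49 to 2.33). Cox5b had 675 CPM in cKO and 388 CPM in control, a ratio of 1.74, and Ndufa1 312 CPM in cKO and 207 CPM in control, a ratio of 1.51 (1.15 to 1.98). Ndufs7, a core iron-sulphur subunit of complex I, was the gene called lower, at 94.1 CPM in cKO and 146 CPM in control, 1.54-fold lower with an interval of the ratio from 0.419 to 0.978. The highest ratio, that of Cox6a2 with 43 UMIs in cKO and 2 in control, came from 2 cKO cells. The mt- genes summed to 22750 CPM in cKO and 34559 CPM in control, 1.52-fold lower, a call that was lost under 7 of 15 other settings.

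B cells went the other way for the nuclear members. They summed to 17582 CPM in cKO and 19087 CPM in control, a ratio of 0.921 (0.896 to 0.947). Of 78 members, 0 were called higher and 1 lower, where 11.4% of all genes were called higher and 5.64% lower, and their median log2 ratio was -0.14 against 0.11 for all genes. The gene called lower was Ndufb7, an accessory complex I subunit, with 175 CPM in cKO and 263 CPM in control, 1.51-fold lower. Ndufa1, so far apart in T cells, had 159 CPM in cKO and 174 CPM in control B cells, with an interval of the ratio that includes 1 (0.686 to 1.24). Cox7c had 643 CPM in cKO and 488 CPM in control, a ratio of 1.32 that misses the size rule. The mt- genes summed to 33503 CPM in cKO and 41928 CPM in control, a ratio of 0.799, and mt-Nd4l was called higher at 1.78. With at most 5% mt- UMIs per cell the direction of the mt- sum reversed, to a log2 ratio of 0.07. The control holds 48 B cells, and the B markers themselves summed to 11577 CPM in cKO and 4633 CPM in control B cells. The 4 stromal markers summed to 115 CPM in cKO and were all at 0 in control B cells, and the 10 gut markers to 58.6 CPM in cKO and 2.96 CPM in control, with 3 at 0 in cKO and 9 in control. The 9 myeloid or dendritic markers summed to 16815 CPM in cKO and 13977 CPM in control, with Xcr1 at 0 in both and Lyz2, Itgam, Csf1r and Siglech at 0 in control. The nuclear sum was also compared in 113 cKO and 47 control B cells with no gut marker UMI. An unplanned setting kept 131 cKO and 25 control B cells of at least 3000 UMIs with no Lyz2, Csf1r or Siglech UMI. Over the 17 other settings for B cells, both among them, the log2 ratio of the nuclear sum lay from -0.27 to -0.02. Beyond this, the part of these markers in the result was not tested.

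Across the 4 classes, 78 members reached 20 CPM in each. Of these, 67 had a log2 ratio above 0 in T cells, 70 in CD8 T cells, 65 in NK cells and 23 in B cells. The ratio was above 0 in all of T, CD8 T and NK cells for 55 members, and 40 of those lay below 0 in B cells. The median log2 ratio of all genes was itself 0.16 in T, 0.27 in CD8 T, -0.01 in NK and 0.11 in B cells. The matching shares of all genes above or below 0 were not counted, so these counts cannot be set against a background. The classes of a genotype come from 1 library, so their ratios share its depth, its free RNA and its handling, and the difference between B cells and the other classes was not tested.

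**Figure D3:**
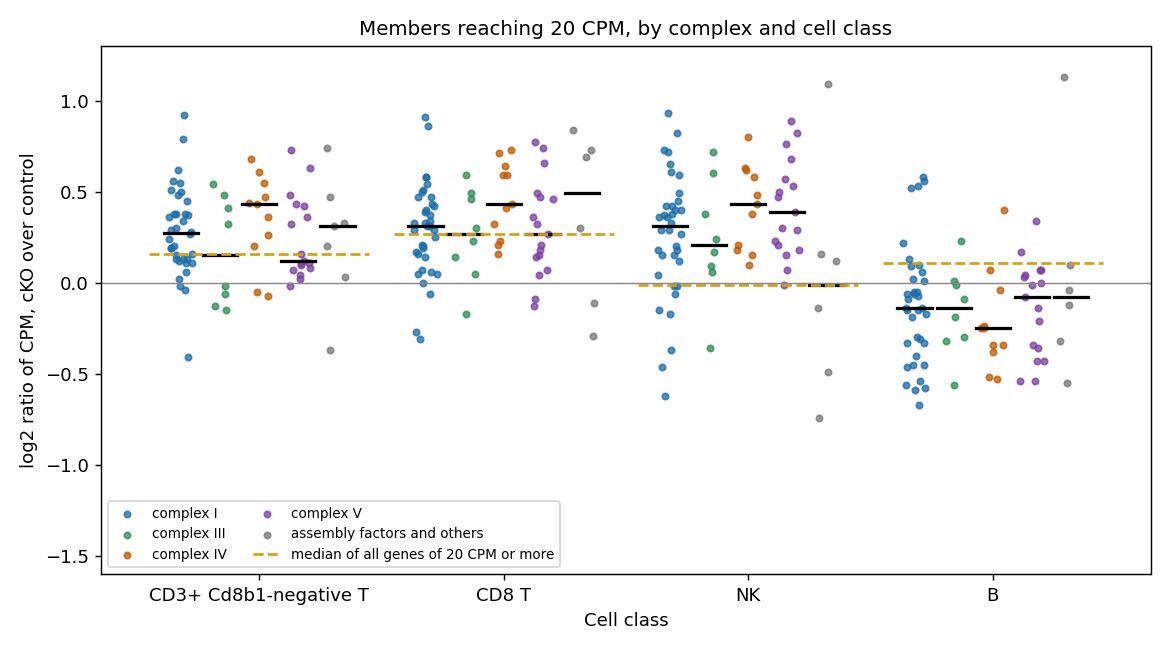
Log2 ratio of CPM, cKO over control, of each member reaching 20 CPM, by cell class and complex; black bars are medians per complex and dashed lines the median of all genes in that class. Complex IV has a median of 0.43 in T cells and -0.25 in B cells, and Cox6a2 in NK cells, at 4.57, lies beyond the axis.

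Within a library the classes can be set side by side with no change of library. In cKO, the nuclear members made 2.28% of UMIs in T cells, 2.48% in CD8 T cells, 2.65% in NK cells and 1.76% in B cells. In control they made 1.88% in T cells, 1.95% in CD8 T cells, 2.08% in NK cells and 1.91% in B cells. The order T, CD8 T, NK was the same in both libraries, and B cells were lowest in cKO. In control the interval of the B share, 1.86% to 1.96% over 48 cells, took in the T and CD8 T values, so its rank is not resolved. In cKO, 15 of 79 members were called lower in B than in T cells and 0 higher, where 26.7% of all genes were called lower and 14.0% higher. In control, 0 of 78 were called lower and 1 higher, where 22.1% of genes were called lower and 13.7% higher.

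The gut-led cells of the cKO library had a larger share of their UMIs on respiratory chain genes of both genomes than T cells of the same library. Their members summed to 32798 CPM, against 22764 CPM in T cells, a ratio of 1.44 (1.43 to 1.45). The mt- genes summed to 56281 CPM in gut-led cells and 27093 CPM in T cells, a ratio of 2.08, although the mt- filter had left out 37.9% of the gut-led cells. Of 80 members, 40 were called higher and 4 lower in gut-led cells, where 28.2% of all genes were called higher and 33.0% lower, and the members' median log2 ratio was 0.59 against -0.20 for all genes. Complex III had the highest summed ratio, at 1.69, followed by complex IV at 1.52, complex V at 1.45 and complex I at 1.32. The median depth was 1504 UMIs in gut-led cells and 6830 in T cells, and 202 of the gut-led cells also held a CD3 UMI.

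Core, catalytic and accessory genes were all among the members called higher in gut-led cells. The 6 core genes of complex I had a median log2 ratio of 0.89 and 5 of them were called higher, while 29 accessory genes had a median of 0.42 with 13 called higher and 2 lower. Ndufv1 had 147 CPM in gut-led and 49.8 CPM in T cells, a ratio of 2.96 (2.69 to 3.24). Atp5b, the catalytic beta subunit, had 1119 CPM in gut-led and 447 CPM in T cells, a log2 ratio of 1.32, and Cox4i1 had 1819 CPM in gut-led and 678 CPM in T cells, a ratio of 2.68. Ndufab1, the mitochondrial acyl carrier protein, was 3.15-fold higher in gut-led cells, and Atp5o, a stalk subunit of complex V, 3.08-fold.

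Of the 8 members called higher in cKO T cells in the genotype comparison, Ndufa1 and Ndufa3 were called lower in gut-led cells and the others were not called. Cox7a2 was among the others, with 658 CPM in gut-led and 448 CPM in T cells, a ratio of 1.47, and Cox7c had a ratio of 0.912. Ndufa3 had 130.3 CPM in gut-led cells and 304 CPM in cKO T cells, 2.33-fold lower, and Ndufa1 had 168 CPM in gut-led cells and 309 CPM in cKO T cells, 1.84-fold lower. Atp5e, the epsilon subunit of F1, was 1.52-fold lower and Ndufaf7 1.56-fold lower. The 2 comparisons share the cKO T cells, so a high level there raises a gene's ratio in the genotype comparison and lowers it in this one. The levels of Ndufa1 were 168 CPM in gut-led cells, 309 CPM in cKO T cells and 163 CPM in control T cells. Those of Ndufa10 were 177 CPM in gut-led cells, 76.5 CPM in cKO T cells and 101 CPM in control T cells.

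Within the T class the higher nuclear share in cKO was seen in each state set by marker UMIs, but not in cells under 3000 UMIs, described below. Such gates favour deep cells: their median depth in control was 5100 to 6607 UMIs, against 2532 for all control T cells. The states are therefore not separate checks on depth. In cells with a Trav11 UMI, where the median depth was 6616.5 UMIs in cKO and 6607 in control (totals of 1043493 UMIs over 136 cKO cells and 1049824 over 157 control cells), nuclear members made 2.35% of UMIs in cKO and 1.88% in control. There 16 of 79 members were called higher and 0 lower, where 16.5% of all genes were called higher and 7.15% lower. In cells with a UMI of Klrb1c, the NK1.1 antigen of mature iNKT1 and NK cells, the shares were 2.31% in cKO and 1.86% in control, and 11 of 78 members were called higher and 0 lower, where 16.0% of all genes were called higher and 7.72% lower. In cells with a UMI of Izumo1r, the folate receptor 4 gene, they were 2.18% in cKO and 1.86% in control, and 4 of 79 members were called higher and 0 lower, where 8.33% of all genes were called higher and 5.22% lower. Cells with at least 2 UMIs of the interferon-induced genes Ifit1 and Ifit3 together had 2.16% in cKO and 1.77% in control, and cells with a UMI of the division genes Mki67 or Top2a had 2.37% in cKO and, in control, a share with an interval of 2.08% to 2.12%.

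Within cKO, the nuclear share also differed with effector state. Cells with a UMI of Gzmb, the granzyme B gene of cytotoxic cells, had 2.35%, and those without had a share with an interval of 2.09% to 2.11%. In control the share was 1.89% with a Gzmb UMI and 1.86% without. Cells with at least 2 UMIs of Fxyd7, a gene seen at that level in 0 control T cells, had 2.35% nuclear and 2.46% mt- UMIs, and the other cKO T cells had 2.22% nuclear and 2.88% mt- UMIs. For both splits of the cKO cells, 0 of 79 members were called in either direction. Of all genes, the Gzmb split called 5.56% higher and 5.51% lower, and the Fxyd7 split 2.65% higher and 3.40% lower.

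The direction differed between cells of low and high depth. In T cells of 500 to under 1500 UMIs, nuclear members made 1.37% of UMIs in 75 cKO cells and 1.93% in 1891 control cells. In those of 1500 to under 3000 UMIs they made 1.33% in 139 cKO cells and 1.94% in 1399 control cells. From 3000 UMIs upward cKO was higher: 2.33% in cKO and 1.82% in control at 3000 to under 6000 UMIs, 2.26% in cKO and 1.82% in control at 6000 to under 12000, and 2.36% in cKO and 2.07% in control at 12000 or more. The mt- share turned round at the same depth, at 5.31% in cKO and 4.28% in control for 1500 to under 3000 UMIs, and 2.54% in cKO and 4.32% in control for 3000 to under 6000 UMIs.

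**Figure D4:**
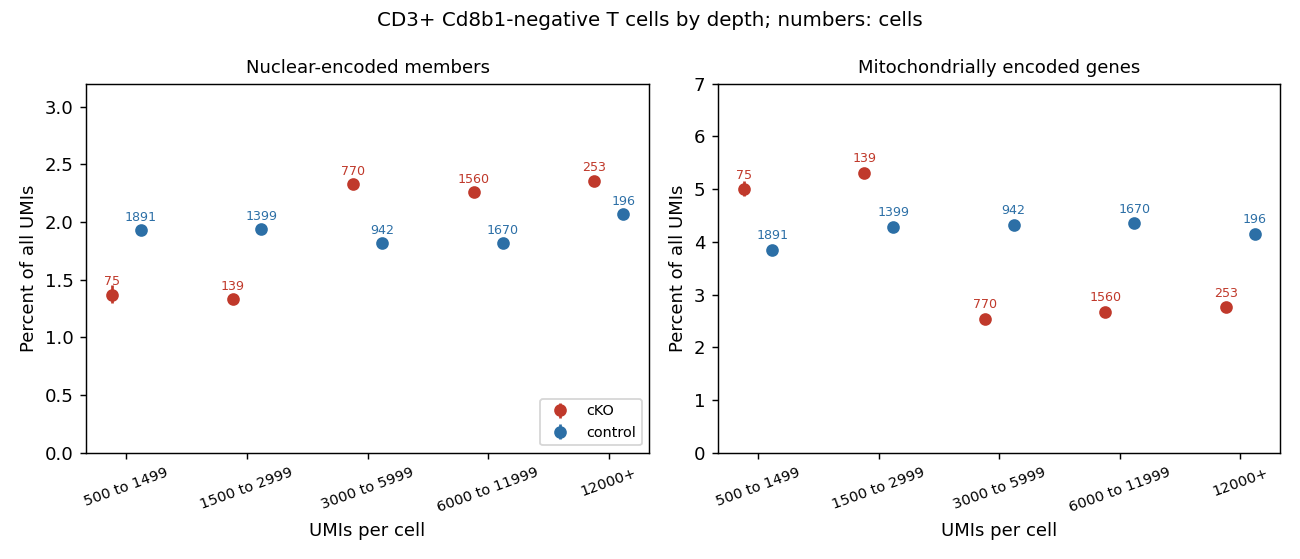
Share of all UMIs on nuclear members (left) and mt- genes (right) in T cells by UMIs per cell, cKO in red and control in blue, with exact 95% intervals for counting error and the number of cells printed. The nuclear share is lower in cKO at 1.33% against 1.94% for 1500 to under 3000 UMIs and higher at 2.33% against 1.82% for 3000 to under 6000 UMIs.

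Nuclear and mt- shares ran opposite to each other across cells of cKO. In cKO T cells with under 2% mt- UMIs, nuclear members made 2.54% of UMIs, in those with 4% to 6% they made 1.94%, and in those with 8% to 10% they made 0.651%. In control the same bins had 1.99%, 1.81% and 1.82%. Cells of the highest of these bins had a median of 1675 UMIs in cKO and 1628 in control.

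Transcript length tracked the ratio among the members. In T cells, the Spearman correlation between a member's median transcript length in GENCODE vM21 and its log2 ratio was -0.54 over 79 genes, and 0.03 over the 5870 other genes. The genes share 2 libraries and are not independent, so this is a description. The 27 members under 600 bases had a median log2 ratio of 0.43 with 6 called higher, and other genes of that length had a median of 0.25 with 17.6% called higher. The 14 members of 1200 to 2000 bases had a median of 0.08 and other genes 0.12. The correlation was -0.47 in CD8 T cells, -0.29 in NK cells and -0.15 in B cells. Ndufa1 and Atp5k, at 419 and 321 bases, are among the short members, and Ndufa10, at 2020 bases, among the long ones.

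**Figure D5:**
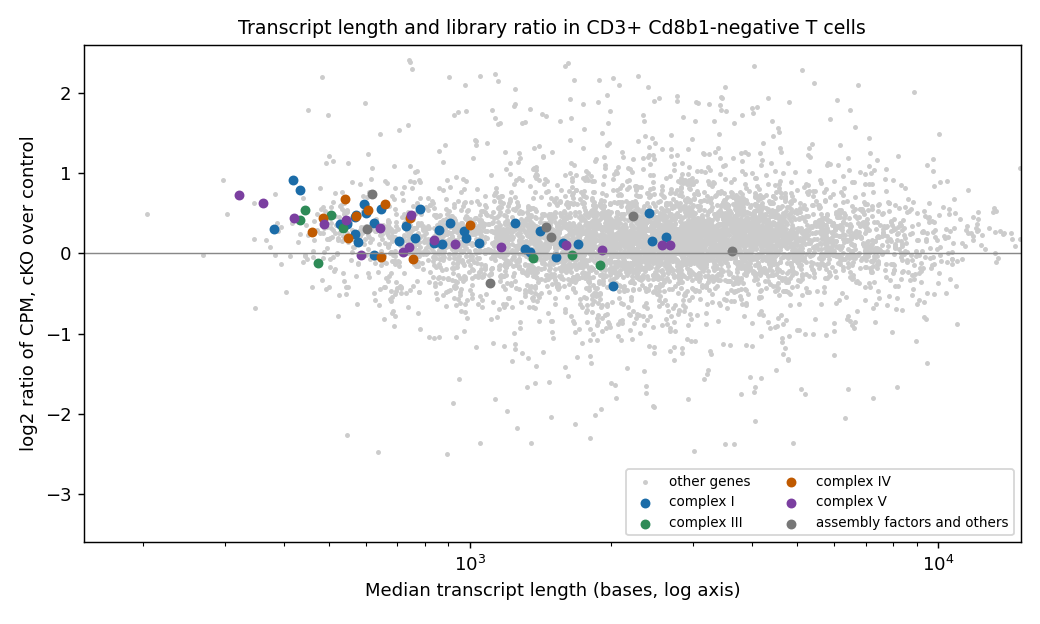
Log2 ratio of CPM, cKO over control, in T cells against median transcript length in bases (log axis), with members coloured by complex and other genes in grey; genes beyond a log2 ratio of 2.5 in either direction are not drawn. Members run downward with length (correlation -0.54) while the other genes do not (correlation 0.03).

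The motifs marked in the sequences above were searched on both strands in the 73 members with a start window. The ETS motif CCGGAAG was in a window of 17 members, 23.3%, against 9.93% of all 27025 genes with a window. That background was not limited to genes expressed in these cells, so it is unlike the members. The NRF1 motif was found for 9.59% of members and 1.07% of all genes. The YY1 motif AAGATGGCG, which can share the letters AAG with the ETS motif, was found for 8 members and 1.64% of all genes. In T cells the 17 tested members with the ETS motif had a median log2 ratio of 0.38 with 2 called higher, and the 51 tested members without it 0.24 with 6 called higher. The medians were 0.20 with and 0.29 without the NRF1 motif, and 0.17 with and 0.29 without the YY1 motif. A match says that the letters are in the window, and binding was not measured here.

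Other mitochondrial gene lists were read against the same background in T cells, 12.6% of all genes called higher and 5.14% lower. Complex II and the electron carriers had 0 of 6 called: Sdha, the flavoprotein of complex II, had 102 CPM in cKO and 98.8 CPM in control, Cyc1 93.7 CPM in cKO and 93.9 CPM in control, and Cycs, cytochrome c, 165 CPM in cKO and 126 CPM in control. Of 15 assembly genes of complexes III and IV that reached 20 CPM, the copper chaperone Cox17 was called higher, at 240.2 CPM in cKO and 154 CPM in control, and the copper factor Sco2 lower, at 14.2 CPM in cKO and 21.9 CPM in control. Of 73 mitochondrial ribosomal protein genes 1, Mrpl54, was called higher and 0 lower, and their median log2 ratio of 0.12 lay below the 0.16 of all genes.

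Of 16 import genes 2 were called higher, a share of 12.5% beside the 12.6% of all genes. They were Tomm7 and Tomm6, of the outer membrane import complex. Tomm7 had 444 CPM in cKO and 269 CPM in control, and Tomm6 377 CPM in cKO and 249.9 CPM in control. Of 12 genes of the tricarboxylic acid cycle, Suclg2, a subunit of succinyl-CoA synthetase, was called higher at 47.1 CPM in cKO and 25.1 CPM in control. Of 6 antioxidant genes, Gpx4, which reduces lipid peroxides, was called higher at 369 CPM in cKO and 218 CPM in control. Of 5 genes of mitochondrial transcription, Slirp, which stabilises mitochondrial mRNA, was called higher at 65.9 CPM in cKO and 40.2 CPM in control, while Tfam, the packaging and transcription factor of the mitochondrial genome, had 40.7 CPM in cKO and 50.6 CPM in control. Among the nuclear regulators 0 of 6 were called, with Gabpa at 30.0 CPM in cKO and 23.3 CPM in control and Nrf1 at 29.5 CPM in cKO and 31.9 CPM in control. The carriers of ADP, ATP and phosphate had 0 of 6 called, and the 2 further complex I assembly genes that reached 20 CPM had 0.

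Markers of other cells moved with genotype in the T class. Myeloid or dendritic markers summed to 1233 CPM in cKO and 374 CPM in control T cells, with 0 of 9 at 0 in either. The 6 B markers summed to 675 CPM in cKO and 428 CPM in control, and the 10 gut markers to 53.2 CPM in cKO and 21.8 CPM in control, with Epcam at 0 by the gate. Of the 5 erythroid markers, 0 reached 10 CPM in cKO and 3 did in control, where they summed to 204 CPM, and stromal markers to 22.7 CPM in cKO and 0.391 CPM in control. Their part in the result was not tested, apart from 1 measurement: in cKO T cells with no UMI of a gut marker, nuclear members made 2.28% of UMIs, and 1.89% in such control cells. Doublets were not removed.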

How the data were processed

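Single-cell RNA was measured in 1 cKO and 1 control library of sorted YFP+ thymus cells. The authors deposited matrices of UMI counts, not normalized, for 32285 features. Per the submitters' processing notes these were made with Cell Ranger 2.1.1 on mm10, while per the file headers the software version is 3.0.0; the difference was not resolved. The upstream annotation is not given in the sources used here. The libraries hold 11206 barcodes and 39979742 UMIs (cKO), and 10102 barcodes and 35210431 UMIs (control).

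Members, lists, filters and the size rule were chosen with earlier results of these data known. Classes were set by exclusive gates, in this order: gut-led cells (1 or more Epcam UMIs), B cells (2 or more UMIs of Cd79a, Cd79b and Ms4a1, no CD3), CD8 T cells (CD3 and Cd8b1, no Cd4), T cells (CD3, no Cd8b1) and NK cells (Ncr1, no CD3). The CD3 genes are Cd3d, Cd3e and Cd3g. Gates on few UMIs depend on depth. Counts were summed over a class and divided by all UMIs. Levels have exact Poisson intervals, shares Clopper-Pearson intervals, and ratios exact conditional binomial intervals, with 0.5 UMIs added to each of the sums. A count of 0 allows 3 counts. With 1 library per group no p is given. The size rule was tested on simulated counts.

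Named members are the 3 highest and 3 lowest ratios of each group in T cells, the paralogue sets and mt- genes, and up to 4 genes of each other list. Members named for NK, B, CD8 T or gut-led cells or by core and accessory role were chosen after their values were seen. 1 member counted in the sums is not reported singly. Coordinates are from GENCODE vM21, which holds 99.6% of the feature identifiers. Start windows are RefSeq GRCm38.p6 and matched 73 of 89 members. Ndufb2, Ndufb8, Ndufb9 and Atp5o overlap exons of another entry on their strand, which makes their counts uncertain. The work was done in Python 3.11.15 with pandas 2.3.3, numpy 2.4.6, matplotlib 3.10.9 and scipy 1.17.1.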

Additional observations from a re-analysis of the deposited data

Results flagged for a closer look

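The summed nuclear members had a higher share in cKO than in control in T, CD8 T and NK cells and a lower one in B cells. The log2 ratio of the sum, cKO over control, was 0.28 in T cells and -0.12 in B cells, a difference of 0.39. For CD8 T against B cells the difference was 0.46, and for NK against B cells it was 0.47. What drew attention is that the single cKO library lies above its control in the first 3 classes and below it in the fourth. The difference was not tested, since each class has 1 library per genotype. The control holds 48 B cells and the cKO library 44 NK cells.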

How the results depend on the processing

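Of 180 values under other settings, 163 were counted as unchanged. For log2 ratios of summed genes, unchanged meant the same direction and the same side of the size rule. The values also took in counts of members called in T cells, which were judged by closeness to the main count instead. Of 21 counts of members called higher, 17 were unchanged, and of 21 counts of members called lower, 20 were. The log2 ratio of the summed nuclear members ranged from 0.11 to 0.35 in T cells, 0.05 to 0.37 in CD8 T cells, 0.22 to 0.38 in NK cells and -0.27 to -0.02 in B cells. Of 79 members tested in T cells, 8 were called higher, where 12.6% of all genes were. Those called higher numbered 2 with a total without mt- and ribosomal protein genes (7.95% of all genes) and 4 under median-ratio scaling (7.83%). At the looser fold threshold tried, 34 were called higher and 2 lower, where 30.4% of all genes were called higher and 10.7% lower. At a fold of at least 2, 0 were called higher, where 4.42% of all genes were. The share of calls over all genes that were higher was 71.1%. It was 48.0% without mt- and ribosomal protein genes and 49.9% under median-ratio scaling. The summed mt- genes in T cells, at -0.66, no longer met the size rule at -0.50 with at most 5% mt- UMIs, a filter that acts on the same quantity, and at -0.55 with cells weighted equally. In NK cells, at -0.60, they missed it at -0.50 (at most 5% mt- UMIs), -0.48 (thinned cells), -0.58 (total without mt- and ribosomal protein genes), -0.40 (equal weight), -0.46 (no gut marker UMI), -0.49 (no cells above the 95th percentile of UMIs) and -0.56 (no dividing cells). In B cells, at -0.32, they reversed to 0.07 with at most 5% mt- UMIs. The cause of the other shifts was not tested. The summed members of gut-led over T cells, at 0.53, met the size rule at 0.63 (at least 2 Epcam UMIs) and 0.64 (no CD3 or Ptprc UMI), settings chosen after seeing the data. No paired analysis was possible because there is 1 library per genotype, and no library can be left out. The NK class holds 44 cKO cells and the B class 48 control cells, which limits the precision of both.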
